A study of Mus musculus with 4 samples.

Results

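Serine synthesis and folate one-carbon metabolism were examined in mouse optic nerves through 10 genes chosen by their function. They are Phgdh, Psat1 and Psph of the serine pathway, Shmt1 and Shmt2, the folate enzyme genes Mthfd1, Mthfd1l, Mthfd2 and Aldh1l2, and the serine transporter gene Slc1a4. These genes, and the lists used below, were chosen with earlier results of these data known. All 10 were found by symbol among the 55401 genes of the deposited tables, and all 10 were among the 16751 genes with enough reads to test. The optic nerve is the tract of retinal ganglion cell axons, with oligodendrocytes that myelinate them, astrocytes, microglia, vessels and a meningeal sheath. RNA with poly(A) tails was sequenced from 2 libraries of the genotype Dor WT and 2 of the genotype Dor cKO, a conditional knockout of the gene called Dor (a synonym of Trp53inp2). The study's title places its question in alpha-ketoglutarate metabolism of mature oligodendrocytes and in myelination. Below, the Dor WT libraries are called controls and the Dor cKO libraries mutants. The sources used here do not give the driver of the deletion, the age, sex and strain, or the number of animals per library.

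Serine is made from the glycolytic intermediate 3-phosphoglycerate. Phgdh oxidises it, Psat1 moves an amino group from glutamate onto the product and so releases alpha-ketoglutarate, and Psph removes the phosphate. Shmt1 in the cytosol and Shmt2 in mitochondria then split serine into glycine and a one-carbon unit bound to tetrahydrofolate. The Mthfd enzymes convert this unit for the synthesis of purines, thymidylate and methionine, while the Aldh1l enzymes release it as carbon dioxide. In the brain, serine synthesis is known chiefly as a property of astrocytes, and serine is a precursor of the sphingolipids of myelin.

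Total expected counts were 17263830 to 21595832 per library. The mean fragment length was 259.6 and 259.97 bases in Dor WT against 245.49 and 245.35 bases in Dor cKO, and an age-like tag stands in the names of the Dor WT tables alone. An effect of either cannot be told apart from that of the genotype. Trp53inp2 had 138 and 134 CPM (reads scaled to library size) in the controls against 105 and 107 CPM in the mutants. It fell by 0.36 in log2 units (edgeR, SE 0.04, adjusted p = 2.73e-08), and a count over the whole gene is only a partial check of a conditional deletion. The call did not hold with limma on log2(TPM + 1) (adjusted p = 0.078) or with the coefficient of variation set at 0.1 (0.111). Over all tested genes, 13.4% fell and 14.3% rose at an edgeR adjusted p under 0.05, the threshold also used for the markers below. Of 15 markers of mature oligodendrocytes, 12 fell and 2 rose. Their summed TPM (transcript levels scaled to gene length and library size) was 25330 to 25540 in Dor WT and 15050 to 15090 in Dor cKO. Of 12 astrocyte markers, 9 rose and 1 fell, with sums of 7863 to 7887 TPM and 8615 to 8675 TPM. All 10 markers of meningeal fibroblasts rose (4702 to 4718 TPM, then 6039 to 6080 TPM). All 5 tested pituitary markers fell, with sums of 88.33 to 93.55 TPM in the controls and 3.23 to 4.31 TPM in the mutants, where Cga, Fshb, Gnrhr, Pou1f1 and Prl were at 0 in both libraries. The part of these differences in the results was not tested unless stated. In whole nerves, fewer cells of a type and less RNA per cell cannot be told apart.

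At the level of transcripts, measured in TPM because it allows for gene length, Phgdh and Psat1 stood far above the other genes. Phgdh had 224 and 211 TPM in the controls and 196 and 201 TPM in the mutants. Psat1 had 185 and 184 TPM in the controls and 130 and 138 TPM in the mutants. Together they made up 72.7% and 72.6% of the summed TPM of the 10 genes in the controls, and 67.5% and 69.5% in the mutants. Slc1a4 came next at 38.5 to 43.4 TPM and did not overlap with its neighbours in the order. Shmt2 (27.33 to 32.67 TPM), Psph (27.45 to 30.13 TPM) and Mthfd1 (22.58 to 31.44 TPM) overlapped with one another. Below them, Mthfd1l, Aldh1l2, Shmt1 and Mthfd2 lay between 3.92 and 9.96 TPM, each overlapping with the next. The sum over the 10 genes was 563.4 and 544.7 TPM in the controls and 482.8 and 488.1 TPM in the mutants, lower in both mutant libraries. Without Phgdh and Psat1, the other 8 genes summed to 154.0 and 149.3 TPM in the controls and 156.9 and 148.9 TPM in the mutants, and these sums overlapped.

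**Figure D1:**
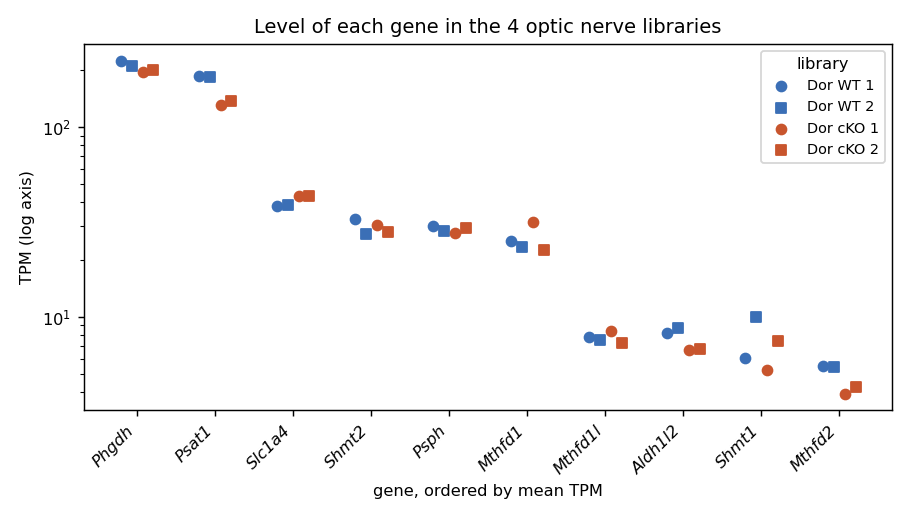
TPM of the 10 genes on a log axis, ordered by mean level, in each of the 4 libraries (blue, Dor WT; orange, Dor cKO; circle, replicate 1; square, replicate 2). Phgdh and Psat1 lie between 130 and 224 TPM, and every other gene lies at or below 43.4 TPM.

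Between the genotypes, 3 of the 10 genes fell in the mutants (Psat1, Aldh1l2 and Phgdh), 1 rose (Slc1a4) and 6 were not called, at an edgeR adjusted p under 0.05. Of all tested genes, 13.4% were called lower and 14.3% higher, or 27.7% in all. The median log2 fold change of the 10 was -0.07, against -0.0036 over all tested genes. In CPM, the groups did not overlap for 4 of the 10 that were lower and 1 that was higher. Over all tested genes, 30.5% were lower and 30.2% higher without overlap, or 60.8% in all. Psat1 had the largest estimated fall of the 10, a log2 fold change of -0.46. The intervals of 2 SE of Aldh1l2 (-0.47 to -0.11), Shmt1 (-0.58 to 0.09) and Mthfd2 (-0.61 to 0.14) also hold that value. These genes were measured less precisely, so their falls are not shown to be smaller. The calls of Phgdh, Aldh1l2 and Slc1a4 did not hold with limma on log2(TPM + 1), where their adjusted p was 0.139, 0.172 and 0.175, or with the coefficient of variation set at 0.1 (0.765, 0.271 and 0.55).

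**Figure D2:**
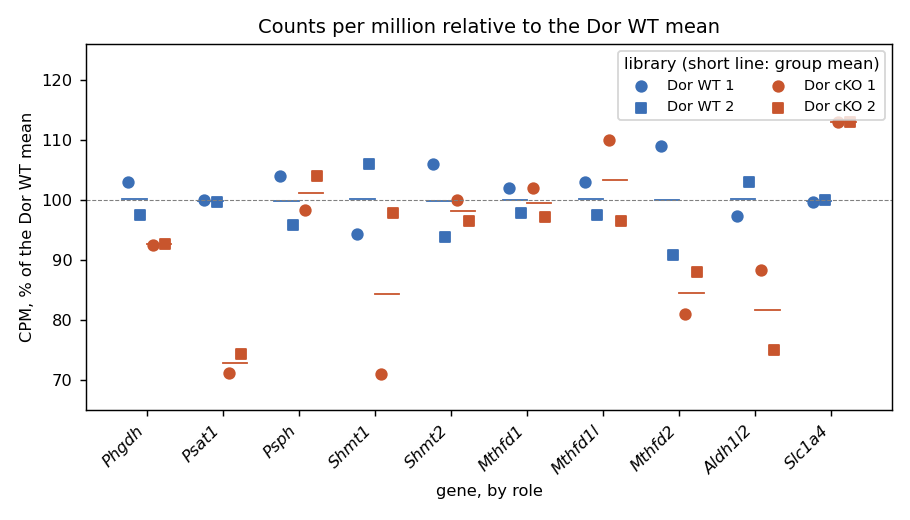
CPM of each gene as a percentage of its Dor WT mean, by library (blue, Dor WT; orange, Dor cKO), with short lines for the group means. Psat1 lies at 71.2% and 74.4% in Dor cKO and Slc1a4 at 113% in both libraries, while Shmt1 and Mthfd1l scatter as widely within a group as between groups.

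Psat1 (ENSMUSG00000024640.9; GRCm38 chromosome 19, 15904678 to 15947337, minus strand) encodes phosphoserine aminotransferase. It had 288 and 286 CPM in the controls and 204 and 213 CPM in the mutants. Both mutant libraries were lower than both controls, with means of 287 ± 1.25 and 209 ± 6.42 CPM (SD, n = 2 per group). The gene fell by 0.46 in log2 units (edgeR, SE 0.03, adjusted p = 2.19e-13), to 72.8% of the Dor WT level. Of the 16751 tested genes, 1492, or 8.91%, fell by more, and the median absolute log2 fold change of all called genes was 0.32. This was the one gene of the 10 that stayed below the threshold of 0.05 in every alternative analysis, including limma on TPM and a coefficient of variation set at 0.1.

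Phgdh (ENSMUSG00000053398.11; chromosome 3, 98313170 to 98339990, minus strand) encodes the dehydrogenase that commits 3-phosphoglycerate to serine. It had 244.3 and 232 CPM in the controls and 221 CPM in both mutants. The mutant libraries lay just below the lower control, and the gene fell by 0.11 in log2 units (edgeR, SE 0.03, adjusted p = 6.3e-03), to 92.7% of the Dor WT level. The call did not hold without Dor WT replicate 1, the higher control (log2 fold change -0.07, adjusted p = 0.114), and without Dor cKO replicate 1 (-0.11, adjusted p = 0.0503). Psph (ENSMUSG00000029446.14; chromosome 5, 129765558 to 129787449, minus strand), the phosphatase gene that ends the pathway, had 29.65 and 27.3 CPM in the controls and 28.0 and 29.7 CPM in the mutants. Its groups overlapped, and the log2 fold change of 0.02 had an interval of 2 SE from -0.14 to 0.19 (edgeR adjusted p = 0.889). Psph shares 452 exonic bases with Cct6a on the opposite strand, a chaperonin gene with 2870 to 3679 counts per library against 515 to 616 for Psph. The library kit kept the strand, but the sources used here do not say whether counting used it.

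Psat1 and Phgdh serve consecutive steps. Within each library, the ratio of Psat1 to Phgdh counts does not depend on library scaling. It was 1.18 and 1.23 in the controls and 0.926 and 0.967 in the mutants, so Psat1 had more reads than Phgdh in both controls and fewer in both mutants. On the TPM scale the ratio was 0.826 and 0.872 in the controls and 0.665 and 0.687 in the mutants, again without overlap. These ratios are given as a description and were not tested.

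The start regions of these 2 genes are shown because they hold the highest levels among the 10 and both fell. RefSeq promoter windows on GRCm38.p6, which run from 250 bases before to 50 bases after a gene's start, were found for 9 of the 10 genes. Each sequence is written 5′ to 3′ on the gene's strand, and capitals mark the CCAAT box, a motif bound by the general factor NF-Y. The RefSeq start of Psat1 lies inside the longer GENCODE gene, and the stretch shown covers 0 exonic bases, while 15 of the 30 bases of Phgdh are in a GENCODE exon.
Psat1, chr19:15925060-15925159, minus strand: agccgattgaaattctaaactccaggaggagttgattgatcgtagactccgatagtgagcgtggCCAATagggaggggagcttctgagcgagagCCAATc
Phgdh, chr3:98339976-98340005, minus strand: taagcatttctgaCCAATcaaaaggagact
The letters CCAAT, on either strand, were found in 7 of these 9 windows and in 41.1% of the 27025 genes that have a window. The TATA box (TATAAA) was found in 1 window, Phgdh, and in 15.7% of all genes. The E-box (CACGTG, 8.09% of all genes) and the cAMP response element (TGACGTCA, 2.03%) were found in 0 of the 9, and the antioxidant response element (TGACNNNGC, 3781 of the 27025 genes) in 2, Phgdh and Psph. Matches are descriptions of the letters in these windows and were not tested for binding.

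Serine is split to glycine by a cytosolic and a mitochondrial enzyme. Shmt2 (ENSMUSG00000025403.5; chromosome 10, 127517123 to 127522444), the mitochondrial form, had 39.7 and 35.1 CPM in the controls and 37.4 and 36.1 CPM in the mutants. The mutant values lay inside the range of the controls, with a log2 fold change of -0.02 and an interval of 2 SE from -0.17 to 0.13 (edgeR adjusted p = 0.881). Shmt1 (ENSMUSG00000020534.14; chromosome 11, 60788104 to 60811718), the cytosolic form, had 8.23 and 9.21 CPM in the controls and 6.19 and 8.53 CPM in the mutants. One mutant library was low and the other fell between the controls, so the log2 fold change of -0.25 had an interval of -0.58 to 0.09 (adjusted p = 0.303). The value was -0.50 without Dor cKO replicate 2 and -0.04 without Dor cKO replicate 1, so 1 library set most of it. Shmt1 shares 184 exonic bases with Smcr8 on the opposite strand, which had 791 to 1040 counts per library against 130 to 200 for Shmt1. The count ratio of Shmt2 to Shmt1 was 4.83 and 3.81 in the controls and 6.04 and 4.23 in the mutants, and overlapped.

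Among the folate enzymes, Mthfd1 (ENSMUSG00000021048.7; chromosome 12, 76255298 to 76319803) encodes the cytosolic protein that carries several activities of the pathway. It had 47.9 and 46.0 CPM in the controls and 47.7 and 45.6 CPM in the mutants. These values were nearly the same in both groups, with a log2 fold change of -0.01 and an interval from -0.14 to 0.12. Mthfd1l (ENSMUSG00000040675.17; chromosome 10, 3973118 to 4167081), the mitochondrial gene for the formate-releasing step, had 18.3 and 17.4 CPM in the controls and 19.7 and 17.2 CPM in the mutants, which overlapped (0.05, interval from -0.16 to 0.26). The count ratio of Mthfd1l to Mthfd1 was 0.382 and 0.379 in the controls and 0.413 and 0.378 in the mutants.

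Mthfd2 and Aldh1l2 both act on the one-carbon unit in mitochondria. Mthfd2 (ENSMUSG00000005667.8; chromosome 6, 83305691 to 83325908), known from dividing and embryonic cells, was the lowest gene of the 10, with 117 and 122 reads in the controls and 105 and 113 in the mutants. In CPM it had 6.74 and 5.62 in the controls and 5.001 and 5.44 in the mutants, so both mutant values lay below both controls. The log2 fold change of -0.24 had an interval of -0.61 to 0.14 (edgeR adjusted p = 0.404), which holds 0. Of 10 cell cycle markers, 4 fell and 0 rose, where 13.4% of all tested genes fell and 14.3% rose, with sums of 291.7 to 299.9 TPM in the controls and 254.5 to 255.8 TPM in the mutants. Their part in the Mthfd2 values was not tested. The count ratio of Mthfd2 to its relative Mthfd2l was 0.504 and 0.519 in the controls and 0.467 and 0.443 in the mutants.

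Aldh1l2 (ENSMUSG00000020256.14; chromosome 10, 83487450 to 83534140, minus strand) encodes the mitochondrial 10-formyltetrahydrofolate dehydrogenase, which releases the unit as carbon dioxide. It had 28.7 and 30.2 CPM in the controls and 26.1 and 22.1 CPM in the mutants, with both mutant libraries below both controls. The gene fell by 0.29 in log2 units (edgeR, SE 0.09, adjusted p = 0.0134), to 81.7% of the Dor WT level. The call did not hold without either of 2 libraries: without Dor cKO replicate 2, the lower mutant, the log2 fold change was -0.18 (adjusted p = 0.28), and without Dor WT replicate 2 it was -0.25 (adjusted p = 0.0775). DESeq2 gave an adjusted p of 0.0601. Aldh1l2 shares 1056 exonic bases with D10Wsu102e on the opposite strand, which had 816 to 959 counts per library.

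Slc1a4 (ENSMUSG00000020142.12; chromosome 11, 20302180 to 20332713, minus strand) encodes ASCT1, a sodium-dependent transporter of serine, alanine and other small neutral amino acids. It had 97.4 and 98.1 CPM in the controls and 111 CPM in both mutants, with little spread inside either group. The gene rose by 0.18 in log2 units (edgeR, SE 0.04, adjusted p = 1.42e-03), to 113% of the Dor WT level, and stayed called when any of the 4 libraries was left out. Of all tested genes, 24.3% rose by more. In TPM it went from 38.7 ± 0.233 to 43.3 ± 0.0849 (SD, n = 2 per group).

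**Figure D3:**
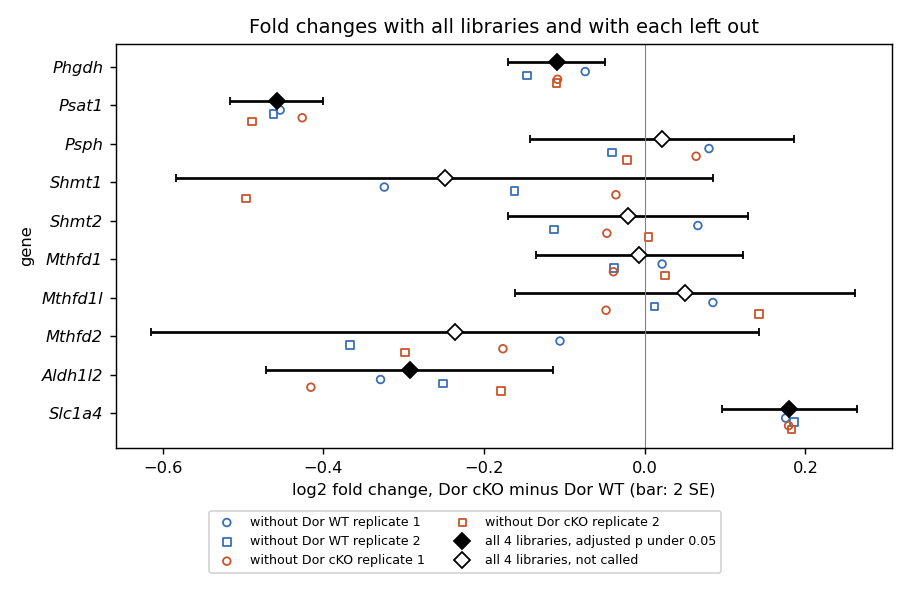
Log2 fold change of each gene, Dor cKO minus Dor WT, from all 4 libraries (diamonds, with bars of 2 SE, filled where the edgeR adjusted p was under 0.05) and with each library left out (open circles and squares). Psat1 stays between -0.49 and -0.43 and Slc1a4 near 0.18, whereas Aldh1l2 runs from -0.42 to -0.18 and Shmt1 from -0.50 to -0.04.

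The wider pathway was described with 55 further genes for carriers, folate conversion, the methionine cycle and the use of serine and glycine, 50 of which could be tested. Of these, 12 rose, 1 fell and 37 were not called, with a median log2 fold change of 0.07. That is 26.0% called, against the 27.7% of all tested genes given above, 14.3% higher and 13.4% lower. The pathway calls were thus mostly rises, while those of all genes were divided almost evenly. This difference was not tested. Carriers and folate retention held 6 of the rises among 16 tested genes (37.5% called), the group with the highest median at 0.16. Folate conversion had 1 rise among 10, the methionine cycle and transsulfuration 2 among 8, and glycine cleavage and serine use 3 rises and 1 fall among 16.

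Slc19a1, the reduced folate carrier, had 71.6 and 74.9 CPM in the controls and 99.8 and 95.6 CPM in the mutants, with no overlap. It rose by 0.41 in log2 units (edgeR, SE 0.05, adjusted p = 7.71e-08). Slc38a1, a glutamine and small amino acid transporter, went from 530 CPM in both controls to 659 and 664 CPM and rose by 0.32 (SE 0.02, adjusted p = 1.63e-13). Sfxn2, of the sideroflexin family that includes mitochondrial serine carriers, went from 19.6 and 20.7 CPM to 26.8 and 24.9 CPM and rose by 0.36 (SE 0.09), a call lost without Dor cKO replicate 1 (0.30, adjusted p = 0.0664). All 3 were higher in both mutant libraries than in either control, as were 30.2% of all tested genes. They were named for the size of their called rises, so this adds no support to the calls. With limma on log2(TPM + 1) the calls of Slc19a1 (adjusted p = 0.0622) and Sfxn2 (0.0794) did not hold, and none of the 3 held at a coefficient of variation of 0.1 (0.0531 for Slc19a1, 0.152 for Sfxn2 and 0.16 for Slc38a1).

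Aldh1l1, the cytosolic counterpart of Aldh1l2 and a widely used astrocyte marker, moved the other way from it. Its level was 173 and 172 CPM in the controls and 218 and 219 CPM in the mutants, a rise of 0.34 in log2 units (edgeR, SE 0.03, adjusted p = 5.06e-10). Cbs, which joins serine to homocysteine and is likewise abundant in astrocytes, went from 20.2 and 20.9 CPM to 29.2 and 31.6 CPM and rose by 0.56 (SE 0.09, adjusted p = 8.18e-06). Pipox, an oxidase of sarcosine and pipecolate, rose by 0.47 (SE 0.13), a call lost without Dor WT replicate 2 (0.32, adjusted p = 0.117) and without Dor cKO replicate 2 (0.41, adjusted p = 0.0721). With limma on log2(TPM + 1) the calls of Aldh1l1 (adjusted p = 0.0703) and Pipox (0.114) did not hold, nor with the coefficient of variation set at 0.1 (0.135 and 0.0608), while Cbs stayed called in both. The sum of the 12 astrocyte markers was higher in the mutants, as given above, and its part in these rises was not tested.

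The single fall was Gcat, a mitochondrial glycine acetyltransferase gene, at 10.5 and 8.98 CPM in the controls and 5.67 and 7.71 CPM in the mutants. It fell by 0.54 (SE 0.17, edgeR adjusted p = 0.0149). The call did not hold without Dor WT replicate 1 (log2 fold change -0.43) or without Dor cKO replicate 1 (-0.33). It was also lost with DESeq2 (adjusted p = 0.0594) and with limma on log2(TPM + 1) (0.589), and held with the coefficient of variation set at 0.1 (0.0378). The annotation holds a second Gcat gene at the same place with which reads are shared, and the authors' estimate of its count carried a posterior standard deviation of up to 13.2%, so its value is uncertain. For the 10 genes that share was at most 0.477%.

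**Figure D4:**
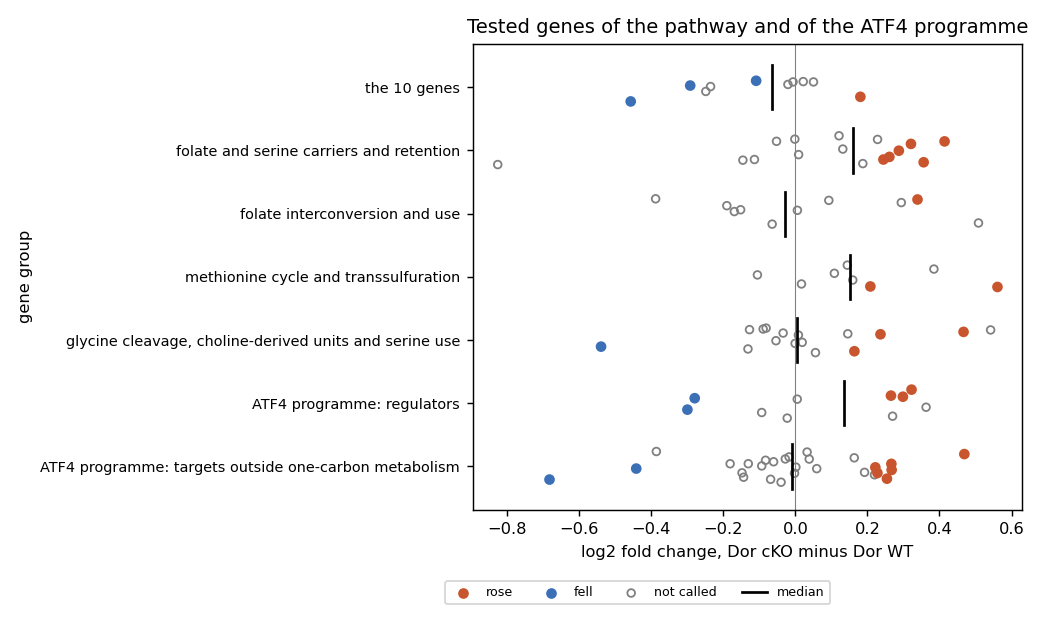
Log2 fold change, Dor cKO minus Dor WT, of every tested gene of the 10, of the further pathway genes by role and of the ATF4 programme (orange, rose; blue, fell; open, not called; black line, median). Rises outnumber falls among carriers, 6 against 0, while the ATF4 targets lie on both sides of 0 with a median of -0.01. Of all tested genes, 14.3% rose and 13.4% fell.

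Several of the 10 genes are textbook targets of ATF4, a transcription factor that is made when translation initiation slows and that induces amino acid synthesis and transport. Atf4 transcripts had 84.7 and 84.2 CPM in the controls and 83.5 and 82.7 CPM in the mutants. The difference of -0.02 on the log2 scale had an interval of 2 SE from -0.12 to 0.07 (edgeR adjusted p = 0.782), and since ATF4 is controlled in translation, its transcript level does not measure its activity. Of 38 tested regulators and targets of this programme outside one-carbon metabolism, 9 rose, 4 fell and 25 were not called, or 34.2% called, with a median that rounds to 0. Over all tested genes 27.7% were called, 14.3% higher and 13.4% lower, so the share in the programme lay near that of all genes. Without Dor cKO replicate 2, 4 rose and 4 fell.

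Targets moved in both directions. Asns, asparagine synthetase, had 20.2 and 21.7 CPM in the controls and 12.4 and 13.8 CPM in the mutants, and fell by 0.68 in log2 units (edgeR, SE 0.11, adjusted p = 1.32e-05). Vldlr, a lipoprotein receptor gene, went from 74.7 and 73.5 CPM to 52.9 and 56.2 CPM and fell by 0.44 (SE 0.06). Slc3a2, the heavy chain shared by several amino acid exchangers, went from 138 and 140 CPM to 165 and 170 CPM and rose by 0.27 (SE 0.03). Eif4ebp1, a repressor of cap-dependent translation, went from 9.04 and 8.33 CPM to 11.9 and 12.1 CPM and rose by 0.47 (SE 0.14). The Eif4ebp1 call did not hold without Dor WT replicate 2 (adjusted p = 0.0686) or without Dor cKO replicate 2 (adjusted p = 0.0684). With limma on log2(TPM + 1) none of these 4 calls held: the adjusted p was 0.181 for Asns (log2 fold change -0.49), 0.174 for Vldlr, 0.0501 for Slc3a2 and 0.103 for Eif4ebp1. With the coefficient of variation set at 0.1, Asns and Vldlr stayed called and Slc3a2 (0.281) and Eif4ebp1 (0.0711) did not.

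Among the regulators, Nupr1 rose by 0.32 (SE 0.04) and Atf5 by 0.30 (SE 0.06), both stress-responsive factors. Eif2s1, the subunit of initiation factor eIF2 whose phosphorylation starts the response, fell by 0.30 (SE 0.06), and Cebpg, a partner of ATF4 on DNA, by 0.28 (SE 0.08). The Cebpg call did not hold without Dor WT replicate 2 (-0.20, adjusted p = 0.102) and also not without Dor cKO replicate 1 (-0.26, adjusted p = 0.0572). Ppp1r15a, which restores translation, rose by 0.27 (SE 0.09), a call that did not hold without Dor WT replicate 1 (0.25, adjusted p = 0.0579) and also not without Dor cKO replicate 2 (0.19, adjusted p = 0.268). Among the targets, the stress sensor gene Sesn2 rose by 0.27 (SE 0.09), and that call did not hold without Dor WT replicate 1 (0.14, adjusted p = 0.311), without Dor cKO replicate 1 (adjusted p = 0.0503) and without Dor cKO replicate 2 (adjusted p = 0.175). With DESeq2 the calls of Ppp1r15a (adjusted p = 0.0785) and Sesn2 (0.0874) did not hold, nor with the length and GC trend taken out (0.0666 and 0.0801). With limma on log2(TPM + 1), Nupr1 alone of these 6 genes stayed called, while the adjusted p of the others ran from 0.202 for Ppp1r15a to 0.361 for Cebpg. With the coefficient of variation set at 0.1 none of the 6 did, from 0.17 for Nupr1 to 0.334 for Ppp1r15a. Ddit3, which encodes CHOP, had 10.1 and 9.39 CPM in the controls and 11.2 and 13.8 CPM in the mutants and just missed the threshold (0.36, SE 0.14, adjusted p = 0.0522). The log2 fold change of Ddit3 was 0.50 without Dor cKO replicate 1 and 0.21 without Dor cKO replicate 2, so it depended on which mutant library was kept. Of the alternative analyses, 4 called it and 13 did not, among these DESeq2 (adjusted p = 0.154).

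ATF4 binds with C/EBP factors to the amino acid response element, searched here as TGATGNAAN on both strands. This and the other motifs were chosen after the values were seen. In the 250 bases before the start alone, the element was found in 0 of the 9 genes with a window and in 3.89% of all genes, and the search was then widened to the whole window. There it was found in the RefSeq window of 4.5% of all genes. Of the 9 genes with a window it was found in 1, Slc1a4, and the bearing of the element on any call was not tested. In the ATF4 programme it was found in 13 of 33 genes, of which 4 rose, 2 fell, 6 were not called and 1 was not tested. Of 19 genes of the programme whose window lacks it, 4 rose, 2 fell, 12 were not called and 1 was not tested. The window of Mars1 also lacks it but was left out of these 19, as its counts stand under the symbol Mars. Sites of Slc1a4, of Asns, which fell, and of Slc7a11, which rose, are shown to compare their letters, with the element in capitals. The last 2 were picked after their values were seen.
Slc1a4, chr11:20332699-20332728, minus strand: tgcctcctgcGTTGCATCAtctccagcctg
Asns, chr6:7693213-7693242, minus strand: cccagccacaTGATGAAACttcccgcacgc
Slc7a11, chr3:50443651-50443680, minus strand: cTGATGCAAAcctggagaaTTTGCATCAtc
The Slc1a4 match lies on the strand opposite to the gene and spans its start, and that of Asns lies on the gene's strand 23 bases before the start. Slc7a11, the gene of a cystine transporter, holds a match on each strand and had 294 and 301 CPM in the controls and 350 and 361 CPM in the mutants. In GENCODE, 15 of the 30 bases shown for Slc1a4, all 30 for Asns and 0 for Slc7a11 are exonic. Genes with this element included both rises and falls. The windows of Psat1 and Phgdh do not hold these letters.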

How the data were processed

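Poly(A) RNA of optic nerves was sequenced as stranded, paired reads in 4 libraries, per the labels' protocols. Tools listed per the submitters' processing notes, without roles, are STAR 2.7.9a, RSEM 1.3.1 and Trimmomatic 0.36, with the build GRCm38. Per the file headers, the authors deposited RSEM gene tables with expected counts (estimates that share ambiguous reads, so not always whole), posterior mean counts with their posterior standard deviation, and TPM, scaled per effective length to the same total in each library. Per the file headers, the deposited tables also give each gene's length, and the fragment length was taken as the median of length minus effective length over genes above 3000 bases, plus 1.

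Symbols from GENCODE M21 (GRCm38) matched 55141 of 55401 identifiers, and the 260 without a symbol held 0.00297% of counts. The sources used here do not give the authors' annotation release. A symbol with 2 identifiers was taken from the one with more reads. Expected counts were rounded, filtered with filterByExpr of edgeR 4.0.16 (minimum count 10, minimum total 15), scaled by TMM and compared with its robust quasi-likelihood test, group as the only term, with Benjamini-Hochberg adjustment over all 16751 tested genes and calls under 0.05. The SE is the fold change divided by the square root of F, and intervals span 2 SE on either side. The common biological coefficient of variation was 0.03477. The counts of the 2 libraries of a group differed by more than sampling noise (chi-square per degree of freedom 2.6 in Dor WT and 2.19 in Dor cKO). The labels do not say whether libraries came from separate animals, so p-values measure the spread between these libraries, which may be technical.

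Alternatives used DESeq2 1.42.0, limma 3.58.1 on log2(TPM + 1) or log2(TPM + 0.1), other scalings and filters, no robust option, a replicate block, posterior mean counts, a coefficient of variation set at 0.1, removal of a length and GC trend, omission of mitochondrial and haemoglobin genes, and omission of each library. The steps were tested on simulated data in which every gene had the common coefficient of variation. That test does not bear on the calls made here. The 10 genes and all lists were chosen with earlier results of these data known. Named genes were the 10, Trp53inp2, Atf4, Ddit3, and up to 6 called falls and 6 called rises of largest size per list with a mean of at least 1 CPM. The ATF4 list names 1 gene under 2 symbols, of which the tables hold 1.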

Additional observations from a re-analysis of the deposited data

How the results depend on the processing

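The result for Psat1 kept its direction and its call in all 17 alternatives, and of 510 comparisons for single genes 430 kept their side of the threshold, 76 lost the call, 4 gained it and 0 reversed. With limma on log2(TPM + 1), and likewise with log2(TPM + 0.1), 1 of the 10 genes was lower and 0 higher. With these pseudocounts, 0 further pathway genes were lower and 5 higher, 0 ATF4 programme genes were lower and 1 or 2 higher, and 722 or 734 of all genes were lower and 666 or 672 higher. With the coefficient of variation set at 0.1, 1 of the 10 was lower and 0 higher, and 1 pathway gene was lower and 1 higher. In that setting, 2 ATF4 programme genes were lower and 0 higher, and 891 of all genes were lower and 703 higher. The single pathway fall became 0 with DESeq2, 4 with total count scaling, 2 without a low-count filter, 2 after removing the trend on length and GC, and 3 with the replicate block. Leaving out 1 library gave 0 to 2 pathway falls and 8 to 12 rises, 2 falls among the 10, and 4 to 8 rises in the ATF4 programme. The cause of these shifts was not tested. The replicate block gave 3 falls and 1 rise among the 10, as without it, and called Ddit3 (0.36, adjusted p = 0.0319). Deviations of libraries with the same number correlated at -0.012, so the numbers gave no sign of pairing. Mthfd2 and Shmt1 had the fewest reads of the 10 genes, 105 to 200 per library, and the widest intervals.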

Other observations

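For some of the genes the deposited TPM and the read counts told different stories within a group. Mthfd1 had 31.4 TPM in Dor cKO replicate 1 and 22.6 TPM in Dor cKO replicate 2, while its CPM values there were 47.7 and 45.6. The effective length that the authors' tables assign to Mthfd1 was 2185 bases in the first of these libraries and 2759 to 2909 bases in the other 3. Shmt1 had 6.07 and 9.96 TPM in the Dor WT libraries at 8.23 and 9.21 CPM, with effective lengths of 1965 and 1343 bases. The largest effective length was 1.46 times the smallest for Shmt1, 1.33 times for Mthfd1, 1.22 times for Mthfd2 and 1.19 times for Aldh1l2, and at most 1.06 times for the other 6. For Mthfd2 the groups were further apart in TPM (5.45 ± 0.0778 against 4.09 ± 0.24, SD, n = 2) than in CPM. In these tables a gene's effective length follows the share of reads given to each of its transcripts, which the gene tables do not list.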
